A study of Homo sapiens with 76 samples.

Results

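The 9 genes described here encode chaperones and protein disulfide isomerases of the endoplasmic reticulum (ER), together with XBP1, a transcription factor that acts on many such genes. They were HSPA5, HSP90B1, CALR, CANX, P4HB, PDIA3, PDIA4, PDIA6 and XBP1, chosen by name, and all 9 were found among the 17513 gene rows of the count table. The series profiled 76 single HEK293 cells, a transformed line from human embryonic kidney that is widely used to make recombinant protein. The cells were grown in DMEM with glutamine and fetal calf serum, were given no stated treatment, carry the same run name in their titles and form 1 group. RNA was primed with oligo-dT and sequenced from the 5' ends, and unique molecular identifiers (UMIs) let each cDNA molecule be counted once. Cells gave 7305 to 43392 UMIs from genes, with a median of 20966. The labels name no separate cultures, so the 76 cells count as 1 sample, no test between groups was possible, and each SD below is over cells.

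Proteins that enter the secretory pathway are folded in the ER. HSPA5 (BiP), an Hsp70 chaperone, and HSP90B1 (GRP94), an Hsp90 chaperone, bind unfolded chains; calnexin (CANX, in the membrane) and calreticulin (CALR, in the lumen) hold glycoproteins through their sugars; and the disulfide isomerases form and rearrange disulfide bonds. When unfolded protein builds up, the sensors ERN1 (IRE1), EIF2AK3 (PERK) and ATF6 start the unfolded protein response. ERN1 cuts XBP1 mRNA so that a spliced form makes an active factor, and ATF6 and XBP1 act on chaperone genes through the ER stress response element. Counts per gene do not separate spliced from unspliced XBP1 mRNA.

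The promoters of 6 of these genes hold that element, which was searched on both strands as CCAAT, any 9 bases, then CCACG, from 250 bases before to 50 bases after each RefSeq gene start (GRCh38.p14). The promoter table held 8 of the 9 genes (not PDIA3). Exact letters of the element were found for 6 of these 8, namely HSPA5, HSP90B1, CALR, CANX, PDIA6 and XBP1, against 25 of all 27305 genes in the table (0.0916%). The windows are shown because the element is rare among promoters and is the one through which ATF6 and XBP1 are known to act. As it was picked for its known part in chaperone genes, finding it here is a description and no independent test. They read 5′ to 3′ on the strand of the gene, with the fixed letters of the element (or their reverse complement) in capitals and 15 bases on each side.

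HSPA5 (chr9:125241376-125241424, minus strand): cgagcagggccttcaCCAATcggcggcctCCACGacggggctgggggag
HSP90B1, far copy (chr12:103930201-103930249, plus strand): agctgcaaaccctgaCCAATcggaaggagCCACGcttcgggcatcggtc
HSP90B1, near copy (chr12:103930306-103930354, plus strand): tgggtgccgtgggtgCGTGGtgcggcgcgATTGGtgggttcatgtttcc
CALR (chr19:12938369-12938417, plus strand): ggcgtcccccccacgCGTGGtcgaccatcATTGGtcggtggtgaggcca
CANX (chr5:179698763-179698811, plus strand): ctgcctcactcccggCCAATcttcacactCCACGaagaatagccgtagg
PDIA6 (chr2:10812838-10812886, minus strand): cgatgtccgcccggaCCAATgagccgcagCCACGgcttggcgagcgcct
XBP1 (chr22:28800588-28800636, minus strand): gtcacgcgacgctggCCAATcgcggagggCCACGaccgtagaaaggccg

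The element began 66 bases before the start of HSPA5 (position -66, with the start base as 0), at -52 for XBP1 and at -86 for the start of PDIA6 listed second. HSP90B1 held 2 copies in opposite orientations, at -194 and -89, and CALR held 1 in reverse orientation at -225. CANX has 4 listed starts, and the same copy lay at -151, -9 or -189 from 3 of them. P4HB and PDIA4 held CCAAT, on either strand, at 3 places each before their first start but not the full element, which says only that these letters are not in this window. CCAAT alone is common: 39.7% of genes in the table held it on either strand, and it is part of the element. Neither ATTGG, any base, CCACG (a second form of the element, in 0.0541% of promoters) nor TGACG directly followed by TGG (the core of another response element, in 0.729%) was found for any of the 8. A match of letters is a description and does not show that a factor binds there.

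**Figure D1:**
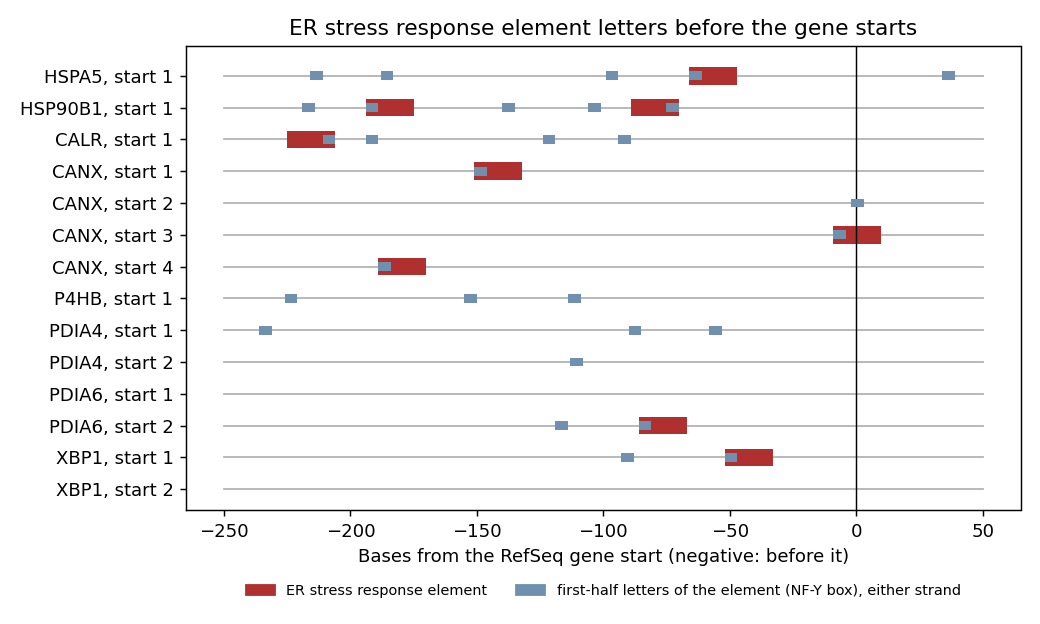
Positions of the ER stress response element (red) and of CCAAT on either strand (blue) around the 14 RefSeq starts of 8 of the genes; the horizontal axis is the distance in bases from each start. The element lies before or across a start of HSPA5, HSP90B1, CALR, CANX, PDIA6 and XBP1, and no red bar appears for P4HB or PDIA4.

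HEK293 cells carried all 9 transcripts, at means of 1.79 to 6.16 UMIs per cell and ranks of 515 to 1762 among 17513 genes. Summed over the 9 genes, a cell gave 6 to 109 UMIs (median 27.5, mean 32.7 ± 19.9), which was 0.0529% to 0.262% of its UMIs (median 0.132%, mean 0.144% ± 0.0529). The highest share was thus 4.96 times the lowest. A UMI at the 5' end stands for 1 cDNA molecule whatever the length of the transcript, so levels are given as UMIs and not per length. Long transcripts that are not copied to their 5' end would be missed, and this was not tested. All 9 genes passed the minimum mean of 1 UMI per cell used below, as did 2810 genes in all.

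HSP90B1, the ER Hsp90, was the most abundant of the 9. It gave 0 to 24 UMIs per cell with a median of 5 (6.16 ± 5.20) and ranked 515 of 17513 genes by mean. Per 10000 UMIs of a cell it stood at 2.63 ± 1.60, and a UMI was seen in 72 of 76 cells (94.7%, exact Clopper-Pearson 95% interval 87.1% to 98.5%). Intervals here cover counting error only. HSPA5, the ER Hsp70, gave 0 to 22 UMIs with a median of 3 (4.30 ± 4.24), or 1.79 ± 1.55 per 10000. It was seen in 69 cells (90.8%, 81.9% to 96.2%), and its highest count, in cell 73 as numbered in the titles, stood well clear of the next highest, 16. HSP90B1 exceeded HSPA5 in 49 cells, equalled it in 7 and was lower in 20.

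The lectin chaperones differed from each other. Membrane-bound CANX gave 0 to 16 UMIs with a median of 4 (5.08 ± 3.68), and was seen in 73 cells (96.1%, 88.9% to 99.2%). Its soluble relative CALR gave 0 to 9 with a median of 2 (2.64 ± 1.99), in 69 cells. CANX was higher than CALR in 53 cells, equal in 6 and lower in 17, so the ranges overlapped although most cells showed the same order.

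Among the disulfide isomerases, PDIA6 (P5) led with 0 to 16 UMIs and a median of 3 (4.71 ± 3.92). It was seen in 74 cells (97.4%, 90.8% to 99.7%), the most of any of the 9. P4HB, the founding isomerase and a subunit of collagen prolyl hydroxylase, gave 0 to 18 with a median of 3 (3.75 ± 3.36) in 65 cells. PDIA3 (ERp57), the partner of calnexin and calreticulin, gave 0 to 10 with a median of 1 (1.99 ± 2.29) in 54 cells (71.1%, 59.5% to 80.9%). PDIA4 (ERp72) was the lowest, at 0 to 11 with a median of 1 (1.79 ± 2.16) in 50 cells (65.8%, 54.01% to 76.3%). All 4 isomerases were thus seen in most cells. The interval of P4HB was 75.6% to 92.5%. As all genes were counted in the same cells, these separate intervals do not compare 1 gene with another.

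XBP1, the transcription factor, gave 0 to 10 UMIs with a median of 2 (2.25 ± 2.27) in 58 cells (76.3%, 65.2% to 85.3%). Its rank by mean was 1433, against 1610 for PDIA3 and 1762 for PDIA4.

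**Figure D2:**
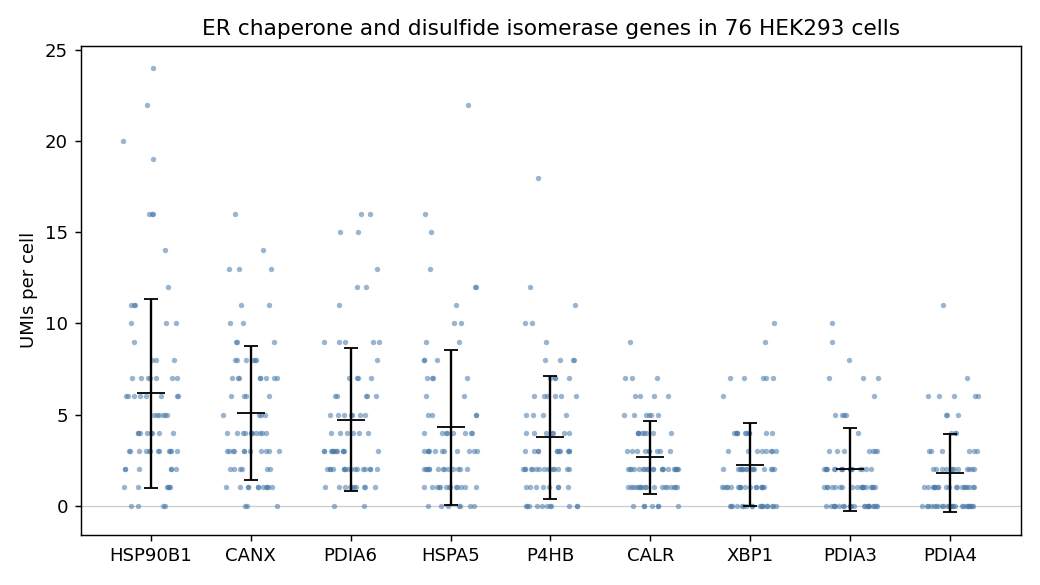
UMIs per cell of each gene; each point is 1 of 76 cells (spread sideways for visibility), the long tick is the mean and the bar 1 SD. Means run from 6.16 UMIs for HSP90B1 to 1.79 for PDIA4, and points at 0 occur for every gene.

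The order of means was HSP90B1, CANX, PDIA6, HSPA5, P4HB, CALR, XBP1, PDIA3 and PDIA4. No 2 neighbours in it differed by more than the SD between cells: the largest step, from P4HB to CALR, was 1.11 UMIs, and P4HB was the higher of that pair in 41 cells and the lower in 25. The ends of the order were further apart. HSP90B1 exceeded PDIA4 in 64 cells and was below it in 6, and its mean was 3.44 times as high.

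The cytosolic counterparts were more abundant than the ER forms. HSPA8, the constitutive cytosolic Hsp70, gave 20.4 ± 15.2 UMIs per cell, 4.75 times HSPA5, and was higher in 72 of 76 cells. HSP90AA1 gave 24.8 ± 13.98 and HSP90AB1 22.4 ± 14.9, against 6.16 for HSP90B1, and were higher in 75 and 71 cells. Reads of the cytosolic genes can be shared with near-identical copies, so these 3 values are uncertain. For the ER genes, the pseudogene HSP90B2P had 4 UMIs over all cells, HSP90B3P had 1 and PDIA3P1 had 2, but how reads matching both a gene and its copy were counted is not stated in the sources used here.

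Spike-in RNA, stated at 20000 molecules per chamber, gives a rough molecule number if it was captured as well as cellular RNA. On that nominal scale a cell held an estimated 55.1 ± 45.7 molecules of HSP90B1, 38.04 ± 36.9 of HSPA5, 20.3 ± 19.9 of XBP1 and 15.7 ± 18.5 of PDIA4.

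Of the 9 genes 0 were seen in every cell; among genes with a mean of at least 1 UMI the share was 11.1%, so that a count of 0 in 9 is near the background. All 9 were seen together in 24 cells, 8 of them in another 24, and fewer than 6 in 5 cells. Cells without a given gene had lower totals in the median: those without HSPA5 had a median of 14386 UMIs and those with it 21397, and for PDIA4 the medians were 17798 and 21502. For PDIA6 the medians were nearly equal, 20801 in the 2 cells without it and 20966 in the rest. Poisson counting at each cell's total would give 0.989 cells without HSP90B1 (4 were seen), 1.80 without CANX (3), 2.85 without HSPA5 (7), 4.02 without P4HB (11), 11.2 without XBP1 (18), 13.6 without PDIA3 (22) and 15.8 without PDIA4 (26). For CALR (7 against 8.42) and PDIA6 (2 against 2.23) the zeros seen were no more than this. Whether such an excess is particular to these genes was not tested. In the median, the spike-in RNAs described below also spread more than Poisson counting, but their zeros were not compared with it. With 71 cells thinned to 10940 UMIs each, HSP90B1 was seen in 89.4% of them, HSPA5 in 81.2%, XBP1 in 60.2% and PDIA4 in 50.5%.

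**Figure D3:**
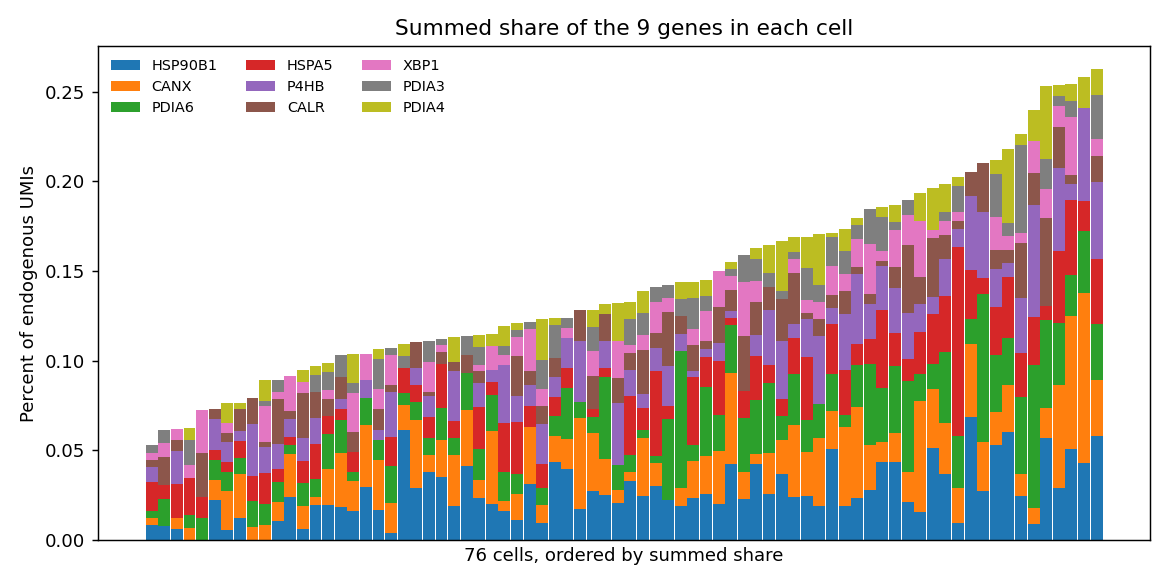
Share of each gene in the endogenous UMIs of every cell, stacked, with the 76 cells ordered by the sum of the 9 genes. The sum runs from 0.0529% to 0.262%, and the colours make up different parts of the bar in cells of nearly equal sum.

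Cells with a like sum differed in the genes that were counted in it, which was not set against counting noise. Cell 33 had the highest share and the most UMIs, 109 of 41539, with HSP90B1 at 24, P4HB at 18, HSPA5 at 15, CANX and PDIA6 at 13 and PDIA3 at 10. Cell 16 had a nearly equal share, 0.258%, from 30 of only 11620 UMIs, of which CANX gave 11 and CALR, PDIA3 and XBP1 none. Cell 73, with 42 UMIs and 0.202%, owed 22 of them to HSPA5 and only 2 to HSP90B1. Cell 5 had the lowest share although it was not shallow, with 13 of 24579 UMIs: HSPA5 at 4, HSP90B1 and P4HB at 2, PDIA4 at 0 and the others at 1.

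The spread between cells was set against that of the spike-in RNAs, which were added in equal amount. The measure is Pearson dispersion, the squared deviation from the count expected at a cell's total, relative to that count, which is 1 for counting noise alone. The total was that of gene UMIs for genes and that of spike-in UMIs for spike-in RNAs, so the scalings differ. The 36 spike-in RNAs with a mean of at least 1 UMI ranged from 0.930 to 2.20, with a median of 1.53. HSPA5 (2.69), PDIA6 (2.398) and CANX (2.28) lay above the highest of them, 3 of 9 genes, where 21.6% of the 2810 genes did. Among the 2424 genes with a mean of 1 to 8 UMIs, the range that holds all 9, 14.6% lay above it. PDIA4 (2.11), P4HB (2.07) and HSP90B1 (1.98) lay just inside the spike-in range, and PDIA3 (1.58), CALR (1.53) and XBP1 (1.49) near its middle. The upper end of that range was set by ERCC-00035, a spike-in RNA with a mean of 2.17 UMIs. At a minimum mean of 3 UMIs the limit was 2.04, and HSPA5, CANX, P4HB and PDIA6 passed it. These were 4 of 5 genes tested, where 49.9% of 1096 genes passed. The median of the 9 was 2.07 and that of all tested genes 1.76. With 9 genes, these counts and medians are descriptions only.

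The calls for HSPA5 and CANX rested on 1 cell each, cell 73 and cell 16, where their shares were highest. Without each gene's own highest cell, HSPA5 stood at 1.72 and CANX at 2.00, against a recomputed spike-in limit of 2.08 that 15.5% of all genes passed. PDIA6 stayed above that limit at 2.21. The sum of the 9 genes had a dispersion of 3.97. As dispersion grows with abundance for an equal relative spread, this cannot be set beside the single genes directly. Expressed as a coefficient of variation beyond counting noise, technical spread included, the sum stood at 0.301 and the single genes at 0.399 (HSP90B1) to 0.788 (PDIA4).

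**Figure D4:**
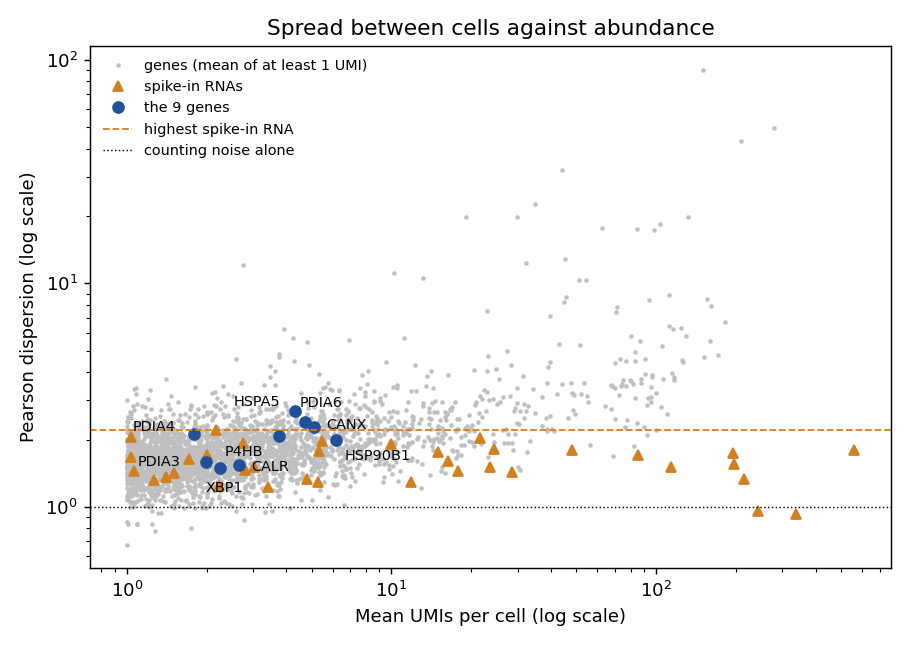
Pearson dispersion against mean UMIs per cell, both on log scales, for genes with a mean of at least 1 UMI (grey), spike-in RNAs (orange) and the 9 genes (blue). HSPA5, PDIA6 and CANX sit above the dashed line of the highest spike-in RNA at 2.20, and the other 6 sit below it.

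The 9 genes varied together only weakly from cell to cell. Over the 36 pairs, Spearman's rho of UMIs per 10000 across the 76 cells ran from -0.148 to 0.344, with a median of 0.0966. Over all 3946645 pairs of genes with a mean of at least 1 UMI the median was 0.0144. Of the 36 pairs 28 were above 0 (54.5% of all pairs were), and 1 was above 0.3 (1.16% of all pairs were). Pairs share genes, cells and each cell's total, and counts this sparse pull rho towards 0, so values of this size are descriptions and not findings.

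HSP90B1 was part of the 3 highest pairs, with CANX (0.344), PDIA6 (0.297) and PDIA3 (0.263). P4HB with PDIA6 (0.259) and HSPA5 with PDIA3 (0.258) followed. HSPA5 and HSP90B1, the main Hsp70 and Hsp90 of the ER, stood at 0.202, and HSPA5 with XBP1 at 0.193. CALR stood near 0 with every gene but PDIA6 (0.188), including its relative CANX (0.00391). The lowest values were P4HB with PDIA3 (-0.148) and CANX with PDIA3 (-0.137). The 15 pairs among the 6 genes with the element had a mean rho of 0.0935, and the 21 other pairs, which include those of PDIA3 with no promoter entry, 0.0899. The 2 means were thus nearly equal in these cells. Many of the other pairs also hold a gene with the element, so the means barely separate genes with it from genes without.

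Set against the sum of the other 8, PDIA6 had the highest rho (0.404), then HSP90B1 (0.358) and PDIA4 (0.276), with XBP1 (0.0643) and CALR (0.106) lowest. When counts were scaled by spike-in UMIs, which leaves a cell's RNA content in both genes, the mean over the 36 pairs was 0.272, against 0.0914 with cell totals. The mean over all pairs of genes moved likewise, from 0.0140 to 0.179.

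**Figure D5:**
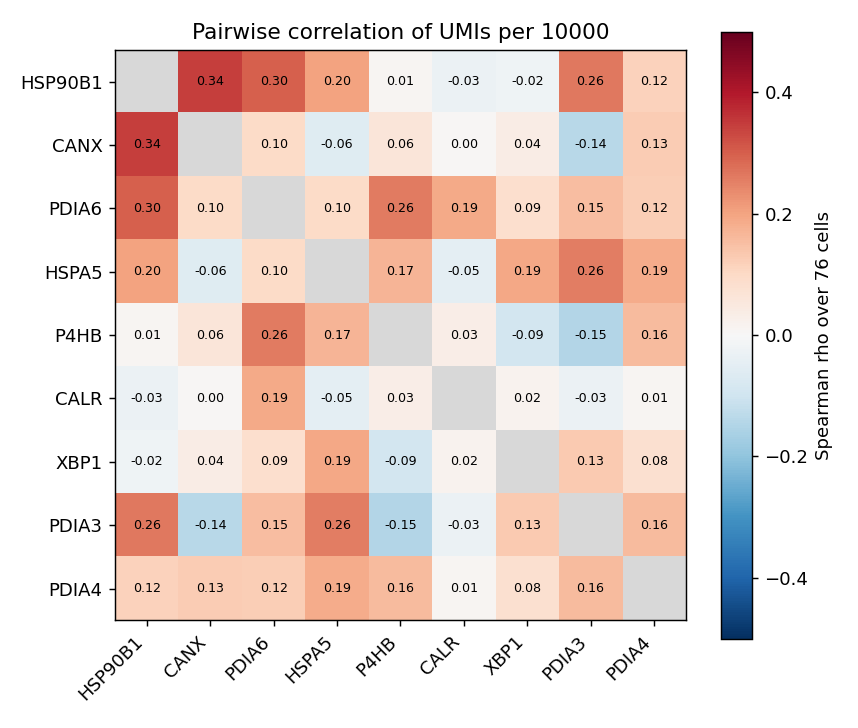
Spearman's rho over 76 cells for each pair of the 9 genes, on UMIs per 10000; red is positive, blue negative and the diagonal is left grey. The darkest red cells belong to HSP90B1 with CANX (0.344) and PDIA6 (0.297), and the row of CALR is pale except for PDIA6.

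Depth and composition moved with several of the genes. HSPA5 and PDIA3 took a larger share in cells with more UMIs (rho = 0.302 and 0.376), CALR a smaller one (-0.221), and the median over all other tested genes was 0.113. Against the share of ribosomal protein genes, HSPA5 stood at -0.342, HSP90B1 at -0.295 and CALR at 0.307, with a median of -0.0820 over genes. The summed share of the 9 genes was lower where mitochondrial mRNA took more (-0.358, median over genes -0.0254). The single genes differed in this, from PDIA6 (-0.398) and HSP90B1 (-0.293) to HSPA5 (-0.00987) and CANX (0.0161). With the S phase share and the G2 and M phase share the sum stood at 0.0101 and 0.0285, and the single gene furthest from 0 was CALR (-0.157 with S phase). Given the ribosomal protein share, the mean over the 36 pairs was 0.0910, and in thinned cells it was 0.0695. The part of mitochondrial mRNA in the pairwise values was not tested.

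By the rule of highest rho with the summed share, the 10 most similar of 2801 other genes were PRPF38B (0.482), YARS (0.477), RCN1 (0.455), ARPC2 (0.442), C7orf55-LUC7L2 (0.440), HSPD1 (0.430), RPN1 (0.424), EEF2 (0.418), YBX1 (0.407) and SMC4 (0.406). The median of the 2801 was 0.0370. RCN1, a calcium-binding protein of the ER lumen, gave 2.20 ± 2.07 UMIs per cell, and RPN1, a subunit of the ER oligosaccharyltransferase, 3.62 ± 3.47. As the highest of many values, these overstate the likeness, and the sum was also scaled by the same cell totals as each gene.

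For single genes the nearest was CCT6A for HSP90B1 (0.553), YBX1 for PDIA6 (0.484), NCL for CANX (0.440), RPN1 for PDIA4 (0.423), RBBP4 for HSPA5 (0.422), SYNGR1 for CALR (0.417), CCT8 for PDIA3 (0.411), KNOP1 for P4HB (0.403) and EIF1 for XBP1 (0.394). CCT6A and CCT8 encode subunits of the cytosolic chaperonin.

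Of the related ER genes, the co-chaperones of HSPA5 were sparse. Of 12 listed, 3 had a mean of at least 1 UMI: DNAJB11 at 2.68 ± 2.16, SDF2L1 at 2.07 ± 2.45 and the translocon-linked SEC63 at 1.39 ± 1.67. None of these 3 exceeded the spike-in limit, where 21.6% of all 2810 tested genes did, the background for each list below. Counts in lists this small are descriptions only. The median rho of the 3 with the summed share of the 9 was 0.150. The nucleotide exchange factors HYOU1 and SIL1 were seen in 26 and 18 cells. Summed, the 12 genes took 0.0509% ± 0.0217 of UMIs, with a rho of 0.374 with the 9. The sums of the other ER lists described below ran from 0.0778 (unfolded protein response) to 0.510 (factors for other ER clients). Lists outside the ER partly lay in that range. The cytosolic counterparts summed to a rho of 0.194 and the markers of the line to 0.143. The S phase and G2 and M phase lists stood at 0.0101 and 0.0285.

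Other genes of disulfide formation were led by the peroxiredoxin PRDX4 (11.5 ± 7.35 UMIs), above every one of the 9, then by the membrane-bound TMX1 (2.37 ± 1.95) and TXNDC12 (1.62 ± 2.00). The oxidase gene ERO1L, which passes disulfides to P4HB, was seen in 20 cells, and its relative ERO1LB in 7. PDIA5 was seen in 15 cells and TXNDC5 in 13. Of 20 listed genes 15 were in the table, the other 5 were not analysed here, and 4 had a mean of at least 1 UMI, with 0 above the spike-in limit.

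In the lectin cycle and glycan list, 8 of 16 genes had a mean of at least 1 UMI and 3 of these exceeded the limit (21.6% of all tested genes did). The oligosaccharyltransferase subunits OST4 (16.9 ± 8.07 UMIs) and DAD1 (9.96 ± 6.66) led, followed by RPN2 (4.92 ± 4.15). UGGT1, which marks misfolded glycoproteins for another round with CALR and CANX, was seen in 13 cells, and the glucosidase genes GANAB and PRKCSH in 34 each. The median rho with the 9 was 0.0554.

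Of the sensors of the unfolded protein response, ERN1 and EIF2AK3 were near the limit of detection. ERN1 was seen in 2 of 76 cells, EIF2AK3 in 5 and ATF6 in 26 (0.513 ± 0.872 UMIs). Of 17 genes in the list 3 had a mean of at least 1 UMI: the translation-controlled factor ATF4 (7.72 ± 5.12), the NF-Y subunit NFYC (1.14 ± 1.42) and HERPUD1 (1.09 ± 1.87), of which HERPUD1 exceeded the spike-in limit (2.28). DDIT3 (CHOP), a factor of prolonged ER stress, was seen in 21 cells, with 0.487 ± 0.959 UMIs. With the summed share of the 9, HERPUD1 had a rho of 0.137, ATF4 0.00607 and NFYC -0.0226. DDIT3 stood at -0.184, the lowest of the 17 genes, which ran up to 0.234.

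ER-associated degradation was led by the signal peptide peptidase HM13 (4.08 ± 3.17 UMIs), the extraction ATPase VCP (3.88 ± 2.48), SELK (3.78 ± 3.46) and UBE2G2 (2.80 ± 2.54). Of 17 genes 7 had a mean of at least 1 UMI, 1 exceeded the limit, and the median rho with the 9 was 0.0671. Among factors for other ER clients, the proline isomerase PPIB gave 8.84 ± 6.44 UMIs, FKBP2 3.09 ± 3.03 and CALU 2.61 ± 2.95. In this list 6 of the 17 genes in the table had a mean of at least 1 UMI, all 6 with a positive rho (59.3% of all tested genes had one) and with a median of 0.252, and 3 exceeded the limit. The collagen prolyl hydroxylase subunits that pair with P4HB were sparse: P4HA1 in 23 cells, P4HA2 in 11 and P4HA3 in 1.

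Markers were read beside these levels. Of the line's own markers, VIM and UCHL1 were seen in 70 cells each, NEFM in 49, KRT18 in 45, NEFL in 26 and KRT8 in 19. Secretory cell types rich in ER chaperones left few UMIs over all cells: 21 from 2 of 6 plasma cell genes (MZB1 in 11 cells, SDC1 in 3), 13 from 2 of 5 fibroblast genes (COL1A1 in 8 cells) and 1 from 2 of 4 hepatocyte genes. The other genes of those lists, and the 5 pancreatic acinar genes, were not analysed here. Per cell these sums reached at most 0.0252%, 0.0121% and 0.00462% of UMIs.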

How the data were processed

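The authors deposited raw UMI counts, whole numbers for every gene in every cell. Per the submitters' processing notes, the tools were STAR 2.4.0a and cutadapt 1.2.1 and the genome was GRCh37 (hg19); their roles are not stated. How UMIs were counted, how multi-mapping reads were treated and how cells were filtered is not given in the sources used here. A row named GENE that repeats column numbers (0.197% of the sum of all values) was left out, and 80 spike-in rows were used only as a reference. Titles tied columns to cells, and 0 pairs of cells held identical values.

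From the counts, shares of each cell's gene UMIs, Pearson dispersion and Spearman correlations were computed in Python 3.11.15 with numpy 2.4.6, scipy 1.17.1 and pandas 2.3.3. The functions were tested on simulated data. Genes and spike-ins entered at a mean of at least 1 UMI, which 2810 genes and 36 spike-ins passed. Thinning drew 10940 UMIs per cell without replacement, 20 times, and left out 5 shallower cells. The genes and lists were chosen with earlier results of these data known. Named genes are the 9, the 2 to 4 most abundant of each related list, the 10 most similar to the summed share and the nearest 1 to each gene; outside this rule, the sensors, oxidases, exchange factors, isomerases, glucosidases and prolyl hydroxylase subunits, DDIT3, UGGT1 and the markers were named for their role after their values were seen. The S phase and G2 and M phase lists served only for their shares. Promoters came from RefSeq (GRCh38.p14), not from the build of the counts, and symbols were matched by name.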

Additional observations from a re-analysis of the deposited data

How the results depend on the processing

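Of 75 alternative values 65 stayed within 1 SD between cells, within a rho of 0.115 or within 1.5 times a count, and 10 did not. These limits are wide, so the 65 say little on stability. The rho limit exceeds the mean pairwise rho itself (0.0914), and the SD of a level is near its mean (HSPA5, 1.79 ± 1.55 per 10000). Some settings could not change a value, such as no filter for the pairwise rho, as all 9 genes pass the filter. The summed share was 0.222% with totals free of ribosomal protein and mitochondrial genes, a smaller denominator by construction. Genes above the spike-in limit numbered 7 with spike-in scaling, 8 against the median spike-in, 0 without the filter on low counts (limit 5.10), 1 with thinned cells (of 7 tested) and 1 without each gene's highest cell. Over all genes, in place of 606 of 2810, 1314 (46.8%) and 1997 (71.1%) of 2810, 80 of 16918 (0.473%) and 277 of 1574 (17.6%) passed under the first 4 of these. The mean pairwise rho was 0.272 with spike-in scaling. Of the 10 most similar genes 2 were shared with spike-in scaling, 6 with Pearson r of log2(UMIs per 10000 + 1) and 6 given the ribosomal protein share; the cause was not tested. No paired analysis was possible because there is 1 group. At 1.79 to 6.16 UMIs per cell, counting error limits every value for single cells.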

Other observations

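Outside the 9 genes, 19 others carried the exact ER stress response element, and 10 of these were in the count table. They included pairs that face each other on opposite strands with overlapping windows: CRELD2 with ALG12, and SERP1 with EIF2A. SERP1, which encodes a small protein of the translocon, gave 4.29 UMIs per cell and was seen in 70 cells, and EIF2A gave 2.18 in 57 cells. CRELD2 gave 0.776 UMIs in 28 cells and ALG12, a mannosyltransferase of glycan assembly, 0.592 in 30. Across the 76 cells the rho with the summed share of the 9 genes was 0.247 for SERP1 and -0.0906 for EIF2A, and 0.0890 for CRELD2 and -0.0338 for ALG12. FICD, which modifies HSPA5 by AMPylation, was seen in 1 cell. These genes were singled out after their values were seen.

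The genes with the lowest rho with the summed share, also chosen after their values were seen, were the histone variant gene H2AFZ (-0.511, 53.6 ± 24.9 UMIs per cell), the complex I subunit gene NDUFC1 (-0.495), RPS7 (-0.443) and the peroxiredoxin genes PRDX1 (-0.438) and PRDX3 (-0.426). With spike-in scaling all 5 turned positive, from 0.135 for NDUFC1 to 0.486 for RPS7. That scaling moved genes in general upward (the mean rho over all pairs of genes went from 0.0140 to 0.179). How many other genes changed sign with it was not counted.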
